A study of Macaca fascicularis with 12 samples.

Results

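Regional-identity transcription factors of the brain were followed across 12 arrays: the homeobox families LHX, DLX, IRX, OTX, EMX, MEIS, PBX, NKX and POU, the family of SIX2, SIX5 and SIX6, the ZIC zinc-finger family and the FOXP forkhead family. All probe sets whose single annotated symbol starts with one of these family names and a digit were taken, with LHX9 and POU2AF1 left out. This gave 69 of 52766 probe sets, which name 46 of 14132 genes. The 46 include IRX2-DT, the divergent transcript at IRX2 and not itself a coding IRX gene, which is counted among the factors below. The brightest probe set stands for a gene unless another is named.

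The tissue came from 3 adult male cynomolgus macaques (Macaca fascicularis) of no stated genotype. Each animal received 4 microinjections into the caudate and putamen of the left hemisphere, with 1e8 particles of the baculovirus BV-HSVtk in 10 µL per injection (called BV below). The right hemisphere of the same animal received a mock preparation at matching coordinates, which was virus-free Sf9 insect cell medium taken through the same membrane chromatography and high-speed centrifugation. Pieces of about 100 mg were collected 2 days later, 2 per hemisphere, and each was hybridised to 1 array of rhesus macaque probes, so there were 6 BV and 6 mock arrays. Arrays 1 and 2 of each treatment were taken to come from animal 1. Likewise arrays 3 and 4 were assigned to animal 2 and arrays 5 and 6 to animal 3. The sample titles give replicate numbers and name no animal, and all values per animal rest on this assignment. The odd array of an animal is called piece 1 and the even array piece 2. The pieces of a hemisphere share an animal, and as virus was always given on the left, an effect of the side cannot be told apart from that of treatment.

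These factors are best known from development, when each is switched on in part of the neural tube and helps to set which neurons form there. Many stay on in the adult neurons of the same region. FOXP1 and MEIS2 are typical of the projection neurons of the striatum, while NKX2-1, LHX6 and LHX8 mark neurons that arise in the medial ganglionic eminence, among them the cholinergic cells of the basal forebrain and striatum. IRX and ZIC factors take part in patterning the diencephalon, from which the thalamus forms.

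The pieces did not all hold the same tissue. They were read as 2 sets: a striatum-rich set (BV 4, BV 6, mock 2, mock 4, mock 5 and mock 6) and the other pieces (BV 1, BV 2, BV 3, BV 5, mock 1 and mock 3). The division was made from measured marker levels in these arrays and not from labels. Differences between the sets are therefore given as a description without a test. The striatal and thalamic marker levels that follow are no independent evidence of what the sets hold. All 7 tested markers of medium spiny neurons, the main striatal cells, were higher in every striatum-rich array, and the mean log2 level of this list ran from 8.99 to 10.39 there and from 5.59 to 7.29 in the other pieces. Of 9 tested thalamic markers only TCF7L2 separated the sets, and that list's mean ran from 6.70 to 8.24 in striatum-rich and from 8.34 to 9.16 in other pieces. The piece sets also follow the piece number, which marks arrays of unlike overall signal (trimmed means of 100.0 in all 6 piece 2 arrays and from 142 to 189 in piece 1): 5 of 6 striatum-rich arrays are piece 2 and 5 of 6 others are piece 1. The mean levels of astrocyte, oligodendrocyte, microglial, endothelial and ependymal markers overlapped between the sets, while those of 6 interneuron markers did not (8.23 to 8.90 against 7.56 to 8.04). That list was mixed: TAC3 and NPY had differences of 3.09 and 2.35 between the sets, PVALB -1.87, and GAD1, GAD2 and CHAT overlapped. Of the cortical markers 2 were above the filter, with a mean of 11.10 to 11.40 in striatum-rich and 8.76 to 10.50 in other pieces. It followed NRGN (difference 3.14), as TBR1 had -0.07 and overlapped. The mean of 4 general neuronal markers ran from 9.79 to 10.46 and from 10.42 to 11.40. The part of these lists in the results below was not tested. Of the array controls, mock 6 had an actin 3' to 5' ratio of 2.40, against 1.10 to 1.40 in the other 11 arrays.

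Values below are log2 of the quantile-normalized intensity plus a pseudocount of 3.49, where 1 unit is a doubling and dim probe sets are compressed. Of the 46 genes, 29 had a brightest probe set above the filter on low values, a mean of 4.95. In 7 of these 29 the 2 sets of 6 arrays did not overlap, with 4 genes higher and 3 lower in striatum-rich pieces. Among the 7, NKX2-1 passed the filter only through its striatum-rich pieces, as its mean in the other pieces was 4.74. Over the 11143 genes above the filter, 4.49% did not overlap, 2.76% with striatum-rich pieces higher and 1.72% lower. With no filter, 10 of the 46 factors did not overlap, against 3.83% of 14132 genes. Counting all 35 factor probe sets above the filter, 9 did not overlap, against 3.79% of 31660 probe sets. A mean difference of at least 1 in size was found for 9 of the 29 factors and for 4.65% of the genes. The median size of the difference was 0.49 over the 29 factors and 0.22 over the 11143 genes, while the signed medians were 0.07 and -0.01. In whole tissue pieces, fewer cells of a type and less RNA per cell cannot be told apart.

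**Figure D1:**
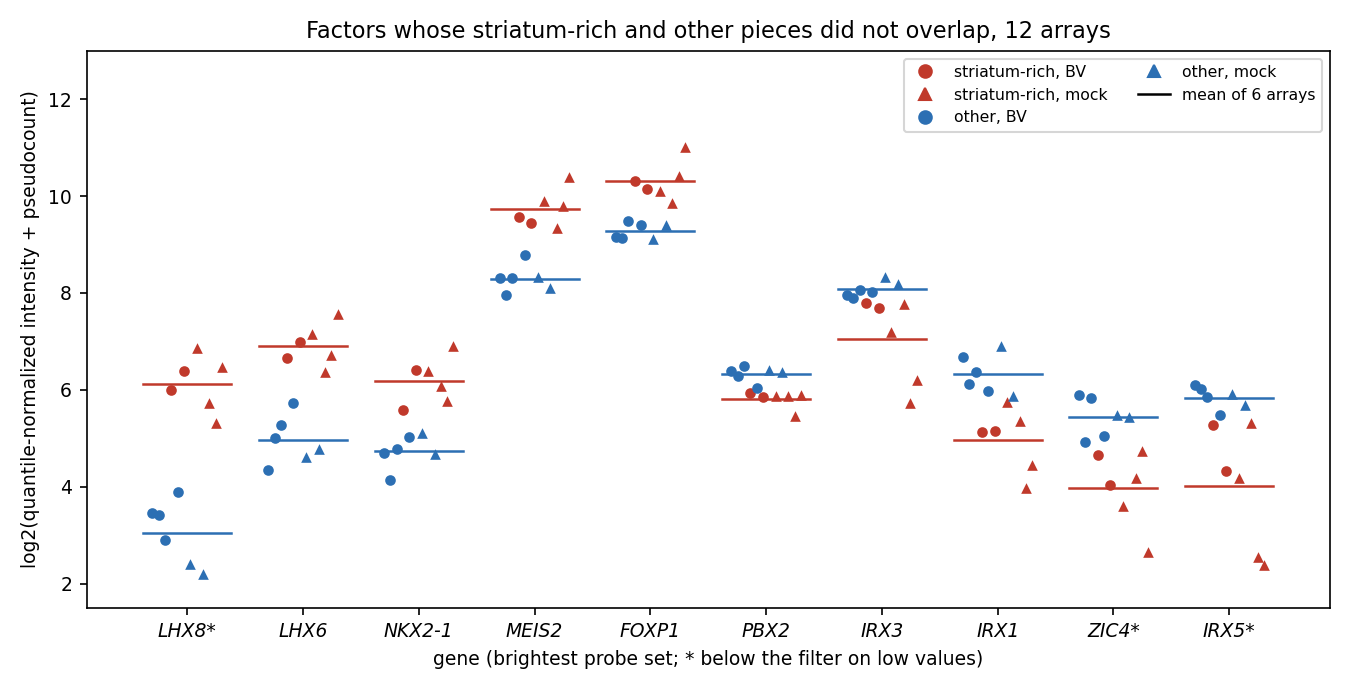
Log2 level (vertical axis) of the 10 factors whose striatum-rich (red) and other (blue) pieces did not overlap, by gene on the horizontal axis, with 1 point per array, circles for BV, triangles for mock and lines for the mean of 6 arrays. LHX8 has the widest separation, and in IRX1, IRX3 and IRX5 the 2 lowest red points are mock 5 and mock 6.

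FOXP1, a forkhead repressor of striatal projection neurons, was higher in striatum-rich pieces. Its log2 level was 10.30 in BV 4, 10.15 in BV 6, 10.10 in mock 2, 9.85 in mock 4, 10.42 in mock 5 and 11.02 in mock 6, against 9.15 in BV 1, 9.14 in BV 2, 9.48 in BV 3, 9.40 in BV 5, 9.12 in mock 1 and 9.41 in mock 3. The other pieces lay within a narrow band below the striatum-rich ones, and the means were 10.31 ± 0.40 and 9.29 ± 0.16 (SD, n = 6 arrays each), a 2.03-fold difference. Another FOXP1 probe set also separated the sets, with a difference of 1.00, while the 2 dimmest had differences of 0.64 and -0.32 and overlapped. FOXP4, a close relative, had means of 7.58 ± 0.48 and 6.91 ± 0.29 with overlap, since mock 1 (7.27) and BV 5 (7.18) lay above the lowest striatum-rich array. FOXP2, the forkhead factor linked to speech, is expressed in both striatum and thalamus. Its brightest probe set ran from 6.07 to 7.56 in striatum-rich and from 4.64 to 6.63 in other pieces, and its other 4 probe sets had differences from -0.64 to 0.29, all overlapping. FOXP3, the factor of regulatory T cells, was below the filter and between 2.35 and 3.70 on every array.

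Of the 3 MEIS genes, TALE homeobox cofactors of other homeodomain proteins, MEIS2 separated the sets by its brightest probe set and MEIS1 and MEIS3 overlapped. MEIS2 was at 9.57 in BV 4, 9.45 in BV 6, 9.89 in mock 2, 9.35 in mock 4, 9.79 in mock 5 and 10.40 in mock 6, and at 8.30 in BV 1, 7.95 in BV 2, 8.31 in BV 3, 8.78 in BV 5, 8.33 in mock 1 and 8.11 in mock 3. The sets were 0.57 apart at their nearest arrays, and their means were 9.74 ± 0.38 and 8.30 ± 0.28 (SD, n = 6 arrays each), a 2.72-fold difference. MEIS1 overlapped by its brightest probe set, at 6.43 to 7.27 against 5.79 to 6.63, because mock 6 lay below BV 5. Its other probe set did not overlap (6.73 to 7.41 against 5.00 to 6.58). MEIS3 ran from 6.0 to 6.50 in striatum-rich and from 4.70 to 6.27 in other pieces, of which BV 5 (6.27) and BV 1 (6.04) reached into the striatum-rich range.

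The PBX proteins, partners of MEIS in DNA binding, differed among themselves. PBX2 was lower in striatum-rich pieces, by a small margin: it ran from 5.46 to 5.93 there and from 6.04 to 6.50 in the other pieces, with means of 5.82 ± 0.18 and 6.33 ± 0.16. The brightest PBX3 probe set overlapped, at 8.99 ± 0.21 and 8.61 ± 0.21, and its sign turned without normalization (-0.02). The 2 dim PBX3 probe sets, both below the filter, pointed the other way: their sets did not overlap, with differences of -2.23 and -2.37. The PBX3 probe sets therefore disagree in direction, and whether they bind the same transcripts was not tested.

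LHX8 and LHX6, factors of neurons from the medial ganglionic eminence, gave the widest separations, with gaps of 1.43 and 0.64 between the nearest arrays. LHX6, a LIM-homeodomain factor of interneurons, was at 6.66 in BV 4, 6.98 in BV 6, 7.15 in mock 2, 6.36 in mock 4, 6.72 in mock 5 and 7.56 in mock 6, and at 4.35 in BV 1, 5.00 in BV 2, 5.27 in BV 3, 5.73 in BV 5, 4.61 in mock 1 and 4.78 in mock 3. The means of 6.91 ± 0.42 and 4.96 ± 0.49 (SD, n = 6 arrays each) differ 3.87-fold, and BV 5 is the nearest of the other pieces. The second LHX6 probe set was dim and overlapped (difference 0.17). LHX8, the LIM-homeodomain factor of cholinergic neurons, was near the lowest values of the arrays in the other pieces, from 2.20 in mock 3 to 3.89 in BV 5. In striatum-rich pieces it was at 6.0 in BV 4, 6.39 in BV 6, 6.87 in mock 2, 5.73 in mock 4, 5.31 in mock 5 and 6.48 in mock 6. Its mean difference of 3.09 was the largest among the 46 factors, although its mean over 12 arrays fell below the filter and its size depends on the pseudocount (1.97 with a pseudocount of 16).

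NKX2-1, the homeodomain factor that sets up the medial ganglionic eminence and regulates LHX6 and LHX8, showed the same order. It was at 5.58 in BV 4, 6.41 in BV 6, 6.38 in mock 2, 6.08 in mock 4, 5.76 in mock 5 and 6.91 in mock 6, and at 4.69 in BV 1, 4.14 in BV 2, 4.78 in BV 3, 5.03 in BV 5, 5.11 in mock 1 and 4.67 in mock 3. The difference was 1.45, or 2.73-fold, between means of 6.19 ± 0.48 and 4.74 ± 0.35, while the second, dimmer NKX2-1 probe set overlapped (0.17). In the RefSeq gene table of Macaca fascicularis, NKX2-8 lies close to NKX2-1 with 1 coding gene between them. NKX2-8 was below the filter and its sets overlapped, at 3.80 to 5.52 and 2.97 to 5.00. NKX6-1, NKX3-2 and NKX1-2 overlapped too, with differences of 0.77, -0.41 and -0.30. LHX1, LHX4 and LHX5, the other LIM factors, had differences of -0.26, -0.35 and 0.24 with overlap.

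DLX1, a factor of GABA neurons from the ganglionic eminences, separated 11 of the 12 arrays. It was between 6.54 and 7.02 in striatum-rich pieces and between 4.77 and 5.72 in 5 of the other pieces, but 7.05 in BV 5. POU3F1, a POU-domain factor also called OCT6, overlapped through BV 5 as well: it was at 6.40 there, above BV 6 at 6.21. Its striatum-rich pieces spread widely, from 6.21 to 8.53, with the 4 mock arrays (6.64 to 8.53) above both BV arrays (6.21 and 6.61). DLX5 ran from 6.06 to 7.11 in striatum-rich and from 5.85 to 6.73 in other pieces, DLX4 had a difference of -0.27, and DLX3 was below the filter on average.

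Of the Iroquois factors (IRX), IRX1, IRX3 and IRX5 were lower in all striatum-rich pieces. IRX1 was at 5.14 in BV 4, 5.15 in BV 6, 5.76 in mock 2, 5.36 in mock 4, 3.97 in mock 5 and 4.45 in mock 6, and at 6.67 in BV 1, 6.11 in BV 2, 6.37 in BV 3, 5.97 in BV 5, 6.91 in mock 1 and 5.88 in mock 3. The means of 4.97 ± 0.65 and 6.32 ± 0.41 put the other pieces 2.55-fold above. IRX3 was at 7.79 in BV 4, 7.69 in BV 6, 7.20 in mock 2, 7.77 in mock 4, 5.72 in mock 5 and 6.20 in mock 6, while the other pieces stayed between 7.89 and 8.32. IRX5, below the filter on average, fell from 5.47 to 6.10 in the other pieces to 2.55 in mock 5 and 2.39 in mock 6, with the other 4 striatum-rich arrays between 4.17 and 5.32. The sets of IRX1, IRX3 and IRX5 were separated by only 0.12, 0.10 and 0.15, and the mock hemisphere of animal 3 carried much of their mean difference. Without mock 5 and mock 6 the differences of IRX1, IRX3 and IRX5 were -0.97, -0.46 and -1.06, in place of -1.35, -1.01 and -1.83. The sets of IRX3 overlapped with median centring in place of quantile normalization.

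IRX2-DT, the divergent transcript at IRX2, was lowest in the same arrays, at 4.93 in mock 5 and 4.50 in mock 6, and ran from 5.90 to 6.58 in the other striatum-rich pieces and from 6.29 to 7.15 in the rest. IRX4 was dim, with means of 2.99 ± 0.41 and 3.88 ± 0.88 and overlap. IRX3, IRX5 and IRX6 are neighbours in the gene table with no coding gene between them. IRX6 did not share the pattern of that cluster: its sets were at 5.61 ± 0.27 and 5.55 ± 0.30, and its difference was 0.06.

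The ZIC factors, zinc-finger proteins of the dorsal and midline brain, included lower levels in striatum-rich pieces. ZIC2 was at 7.17 in BV 4, 7.08 in BV 6, 7.26 in mock 2, 6.55 in mock 4, 6.46 in mock 5 and 7.31 in mock 6, and at 8.65 in BV 1, 8.73 in BV 2, 8.39 in BV 3, 7.29 in BV 5, 8.38 in mock 1 and 8.39 in mock 3. Thus 5 of the other pieces lay at least 1 unit above every striatum-rich array, and BV 5 missed separation by 0.02. ZIC4, below the filter, did not overlap, with means of 3.98 ± 0.77 and 5.44 ± 0.39. ZIC5, which adjoins ZIC2 in the gene table with no coding gene between, had means of 5.21 ± 0.37 and 5.39 ± 0.33 and overlapped.

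The remaining families showed no separation. SIX2 and SIX5, relatives of the eye and forebrain factors, had differences of -0.13 and -0.02, and SIX6 was below the filter. EMX1 and EMX2, factors of the cerebral cortex, had 0.07 and 0.36, and OTX1, a forebrain and midbrain factor, was below the filter at 2.76 to 3.95. POU2F1, a broadly expressed octamer-binding factor, was even at 7.18 to 7.93 on all 12 arrays, and POU6F1 had means of 5.84 ± 0.27 and 5.67 ± 0.27. POU1F1, POU3F4, POU4F2, POU4F3 and POU5F1 were all below the filter, with array levels from 2.47 to 5.31. Of the 17 factors below the filter, LHX8, IRX5 and ZIC4 had sets that did not overlap.

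**Figure D2:**
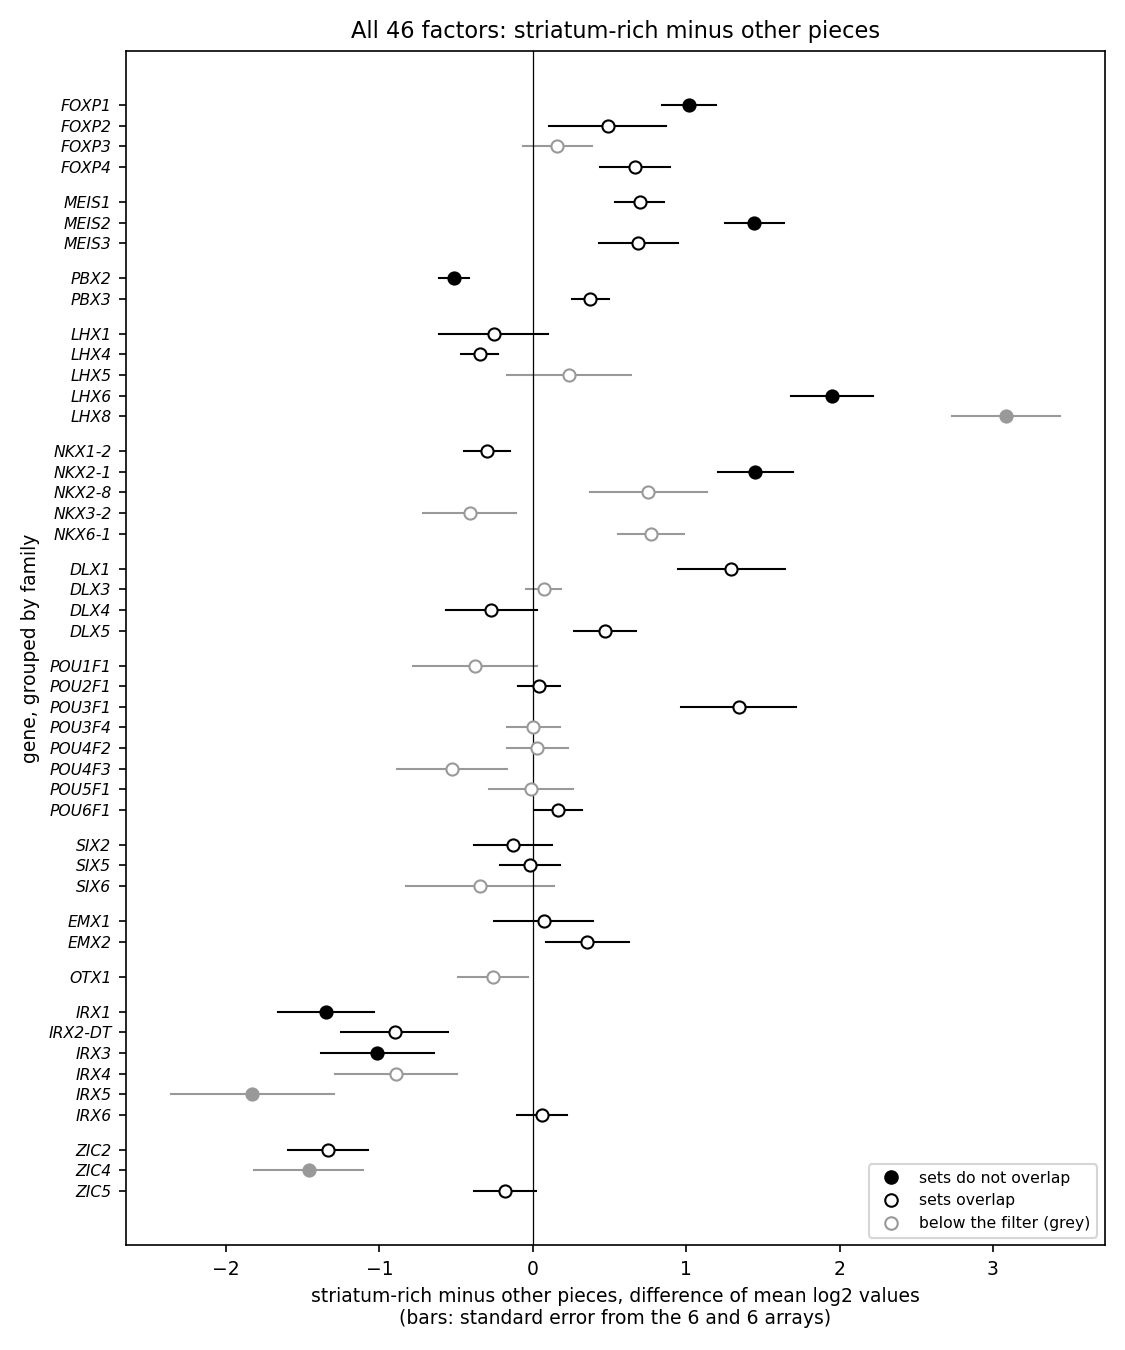
Difference between mean log2 levels of 6 striatum-rich and 6 other arrays (horizontal axis) for all 46 factors, grouped by family on the vertical axis. Bars are standard errors that take the arrays as independent. The arrays come from 3 animals, so the bars only describe the spread of arrays and carry no test. Filled points are the 10 factors whose sets did not overlap and grey points the 17 below the filter. LHX8, at 3.09, and IRX5, at -1.83, are the extremes.

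BV 5 held an intermediate place. Among the 10 factors without overlap it was the nearest of the other pieces for 5, and without BV 5 the count above the filter rose from 7 to 11, by DLX1, MEIS1, POU3F1 and ZIC2. Its mean over the thalamic markers, 8.34, was the lowest of the other pieces, but its striatal mean of 6.89 lay below those of BV 1 and BV 3 (6.99 and 7.29). At the other end, mock 6 was the farthest striatum-rich array for 6 of the 10 factors. It had the highest striatal mean (10.39), the lowest thalamic mean (6.70) and the highest actin 3' to 5' ratio, whose part was not tested. Without mock 6, MEIS1 and ZIC2 joined the 7 factors above the filter. As normalization and filter were kept, leaving out an array cannot undo a separation. These counts could therefore only stay or rise. The share of all genes was not taken without BV 5 or without mock 6.

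Since the sets follow the piece number, the differences were also taken within each. Among the piece 1 arrays only mock 5 is striatum-rich, and among the piece 2 arrays only BV 2 is not, so each comparison rests on 1 array. The direction of the 7 factors in both is fixed by their choice, and only the sizes are described. In piece 1 and piece 2 the differences were 1.10 and 1.14 for FOXP1, 1.42 and 1.78 for MEIS2, 1.77 and 1.95 for LHX6, and 0.90 and 2.14 for NKX2-1. They were -2.39 and -0.94 for IRX1, -2.39 and -0.56 for IRX3 and -0.88 and -0.39 for PBX2. On the deposited values without normalization the 7 had the same direction within each piece number, which is no independent evidence, since they were chosen on these arrays. A single array lies outside 5 others often: 40.5% of genes for mock 5 and 36.3% for BV 2. Without normalization the arrays of all 12 could not be compared so simply, as the median probe set then differed by -0.45 between the sets. In that setting 0 factors were separated upward and 3 (IRX1, IRX3 and ZIC2) downward, and the share of all genes was not taken.

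**Figure D3:**
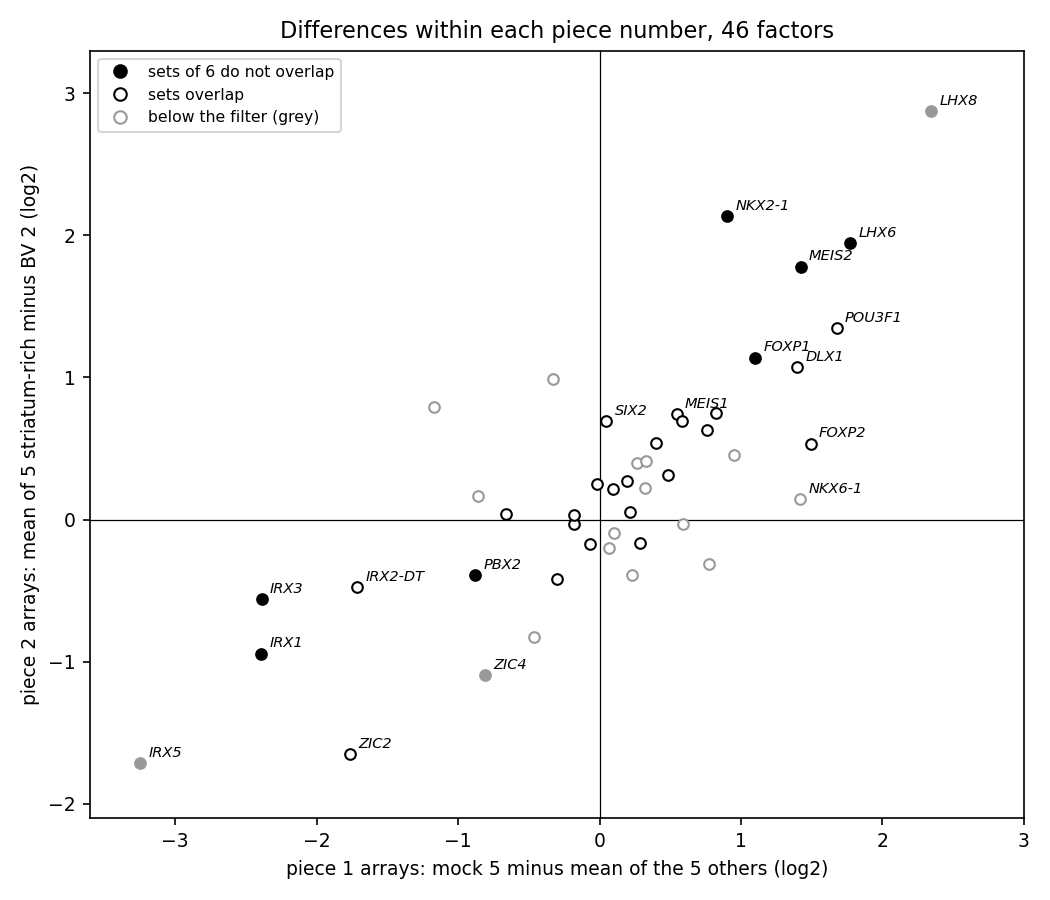
Log2 difference within piece 1 arrays (mock 5 minus the mean of 5 others, horizontal axis) against that within piece 2 arrays (mean of 5 striatum-rich minus BV 2, vertical axis), with 1 point per factor. The 10 filled points, whose full sets did not overlap, lie in the upper right or lower left of the plot, such as LHX6 at 1.77 and 1.95 and IRX1 at -2.39 and -0.94.

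Differences were also taken within animals, where the sign of a factor without overlap is fixed by how it was chosen, so that only the sizes are described. In animal 2 both hemispheres gave 1 striatum-rich and 1 other piece, and there the striatum-rich pieces differed by 0.63 for FOXP1, 1.25 for MEIS2, 1.49 for LHX6, 3.32 for LHX8 and 1.11 for NKX2-1. The same genes differed by 0.96, 1.70, 2.49, 3.77 and 1.74 in animal 1 and by 1.13, 1.10, 1.36, 2.17 and 1.33 in animal 3. IRX3 had -0.86, -0.35 and -1.48 in animals 1, 2 and 3, and IRX1 -0.81, -0.88 and -1.45. Of the factors with overlap, ZIC2 had -1.33, -1.53 and -0.34, the last being the animal of BV 5. DLX1 turned in that animal (1.61, 1.90 and -0.31 in animals 1, 2 and 3), MEIS3 had 0.54, 1.24 and -0.02, and FOXP2 had -0.18 in animal 2.

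Partners of these factors and other regional factors were read from a separate list, of which 45 genes were above the filter. In 5 the striatum-rich pieces were all higher and in 6 all lower, against 2.76% and 1.72% of all genes above the filter, and the median difference was -0.08. The 5 were DACH1, a partner of SIX2-like and EYA proteins (8.17 ± 0.67 against 5.37 ± 0.25), LMO3, a LIM-only protein that shares cofactors with LHX factors (9.98 ± 0.61 against 7.82 ± 0.44), BCL11A, PAX6 and TLE1, a Groucho corepressor. The 6 were TCF7L2, GATA3, ETV1, the nuclear receptors NR2F1 and NR2F2, and PROX1, and TCF7L2 is also on the list of thalamic markers. SHOX2, a thalamic homeobox factor on both lists, had the largest difference (-4.08) and overlapped by 0.10. NR2F2 was at 7.78 ± 0.58 against 9.40 ± 0.30. LDB1, the cofactor that LHX proteins bind, had a difference of -0.26, and EYA3, PKNOX2 and TGIF1 had -0.12, -0.01 and 0.43, all with overlap.

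The design's own comparison was BV against mock. It was fitted with limma on 3 BV and 3 mock hemisphere means with animal as a block, over 31660 probe sets. None of the 35 factor probe sets above the filter passed at an adjusted p of 0.05, and the smallest adjusted p among them was 0.564. Over all probe sets, 9 or 0.0284% passed, and 4 of 6 interferon-response genes on the marker list were among the genes called. At an unadjusted p under 0.05 there were 5 factor probe sets, against 8.8% of all probe sets and 8.69% of genes by their brightest probe set. These were DLX4, FOXP4, NKX2-1 and POU3F1, lower in BV, and ZIC2, higher in BV. The median BV minus mock difference was -0.20 over the 29 factors, with 11 above 0 and 18 below, and 0.00 over the 11143 genes.

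The hemispheres were unequal in piece sets. Averaged over the 3 animals, all 7 striatal markers had lower values in BV hemispheres, with a median of -0.97 and 0 called. Of 9 thalamic markers 8 had higher values, also with 0 called. Animal 2 went the other way for the striatal list: its mean was 7.29 in BV 3 and 9.38 in BV 4, against 5.98 in mock 3 and 8.99 in mock 4. The part of these markers in the values below was not tested. In animal 1 the BV hemisphere held 0 striatum-rich pieces and the mock hemisphere 1, in animal 3 they held 1 and 2, and in animal 2 each held 1. NKX2-1 had hemisphere means of 5.10 ± 0.66 in BV and 5.82 ± 0.48 in mock (SD, n = 3 animals), a difference of -0.72 ± 0.25 (standard error of the limma fit, adjusted p = 0.564). It was made of -1.33, -0.20 and -0.61 in animals 1, 2 and 3. In the numbered pairs 1 to 6 the difference was -0.42, -2.25, 0.11, -0.50, -0.73 and -0.50. The pair of number 2, where the mock piece was striatum-rich and the BV piece was not, was the lowest. The sign of NKX2-1 in pairs 2 and 5 is fixed by how it was chosen.

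The other separated factors varied between animals. MEIS2 had a limma difference of -0.58 ± 0.26, with -0.98, 0.21 and -0.98 in animals 1, 2 and 3, LHX6 had -0.53 ± 0.31 (-1.20, 0.39 and -0.79), and FOXP1 had -0.38 ± 0.23 (-0.46, 0.26 and -0.94). IRX3 had 0.67 ± 0.38 (0.16, -0.05 and 1.89), IRX1 0.51 ± 0.29 (0.06, 0.13 and 1.35) and PBX2 0.19 ± 0.15 (0.20, 0.09 and 0.27). Their limma adjusted p ran from 0.569 to 0.628. In pairs 2 and 5, the pairs across sets, the sign for these factors is fixed by how they were chosen. In animal 2, whose hemispheres were alike in piece sets, FOXP1, MEIS2 and LHX6 had slightly higher and IRX3 near equal values in BV tissue. The striatal markers were also higher on average in the BV hemisphere of animal 2, as given above, and their part was not tested.

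Some factors without a separation had the smallest p. DLX4 was lower in BV in 6 of 6 pairs, by -0.03 to -1.13, with a limma difference of -0.55 ± 0.17 (adjusted p = 0.564) between hemisphere means of 5.22 ± 0.27 and 5.77 ± 0.14. FOXP4 was also lower in 6 of 6 pairs, from -0.01 to -1.03, at -0.55 ± 0.18 (adjusted p = 0.564). The second probe set of each gene was below the filter and not fitted, and was higher in BV in 3 of 6 pairs. In animals 1, 2 and 3 it had 1.07, -1.09 and 0.48 for DLX4 and 0.30, -0.14 and 0.01 for FOXP4. NKX1-2 was the third factor lower in 6 of 6 pairs, at -0.17 ± 0.15 (adjusted p = 0.666), and of all genes above the filter 7.52% had 6 pairs of 1 sign. POU3F1 had -0.86 ± 0.34, made of -0.90, 0.07 and -1.75, ZIC2 had 0.49 ± 0.18, made of 0.87, 0.31 and 0.30, and LHX1 had 0.60 ± 0.30, made of 1.06, -0.31 and 1.05. None of these passed, with limma adjusted p of 0.564 for POU3F1 and ZIC2 and 0.569 for LHX1.

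**Figure D4:**
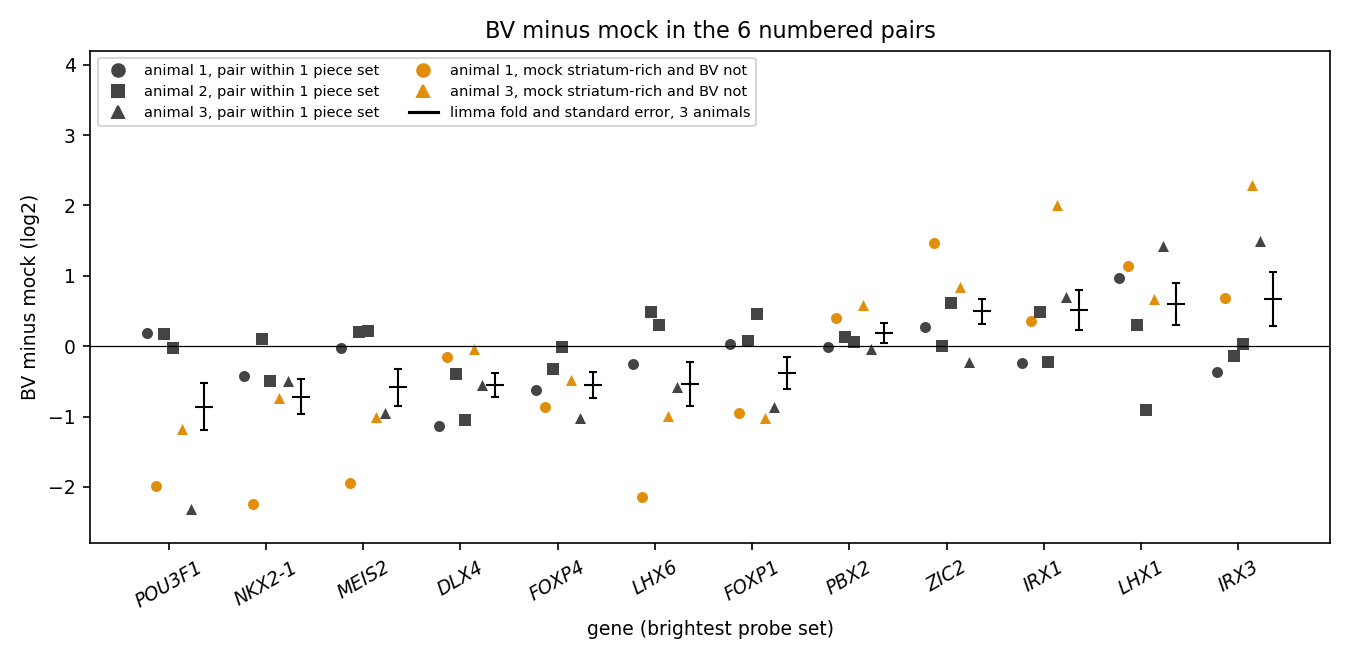
BV minus mock log2 difference (vertical axis) of 12 factors in the 6 numbered pairs, with 1 symbol per animal, and the limma difference with its standard error over 3 animals at the right of each gene. Orange marks pairs 2 and 5, where the mock piece was striatum-rich and the BV piece was not. In NKX2-1, MEIS2 and LHX6 the lowest point is the orange one of animal 1, and the sign of their orange points is fixed by how they were chosen.

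The count of factors called changed when animal 2 was left out. Without it, 5 factors were called by limma, NKX2-1 (-0.97, adjusted p = 0.0458), MEIS2 (-0.98, 0.0125), LHX6 (-1.0, 0.0222) and POU3F1 (-1.33, 0.00573) lower and LHX1 (1.05, 0.0126) higher in BV, and 5.83% of all probe sets passed. The 2 animals left are those whose hemispheres differed in piece sets. They hold pairs 2 and 5, where the lower sign of NKX2-1, MEIS2 and LHX6 in BV is fixed by how these were chosen. The part of the piece sets in these calls was not tested. A fit on 2 animals has fewer residual degrees of freedom than the 2 of the main fit. Its adjusted p values therefore lean heavily on the eBayes variance shared across probe sets. A limma term for treatment by piece number called 0 factor probe sets, with 0 at an unadjusted p under 0.05, against 0 called and 1.8% under 0.05 among all probe sets.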

How the data were processed

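The authors deposited linear intensities per probe set, with a column for each array. GCOS 1.4.0.036 appears in the submitters' processing notes; its summary algorithm and scaling target are not given in the sources here. All 12 arrays were quantile-normalized and taken as log2(intensity + 3.49), the 10th percentile of the deposited intensities. The 99 control probe sets were left out, and probe sets below the 40th percentile of mean log2 level (4.95) were not tested, which left 31660. Symbols come from the array's platform annotation, with 45 of the 46 symbols found among coding genes of the RefSeq table, used only for names and neighbours. Probe and gene sequences were not used here.

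BV and mock were compared with limma 3.58.1 (R 4.3.3): pieces averaged per hemisphere, animal as a block, eBayes with trend, 2 residual degrees of freedom, Benjamini-Hochberg adjustment over all probe sets, two-sided. Each animal carried both treatments, hence the block. Deviations of an animal's hemispheres from the group means correlated at 0.622, 0.156 and 0.361 over probe sets. The fit was also run on simulated data with independent noise for each array. Unlike these arrays, the simulated ones held no piece sets, so that run does not show how the fit copes with them. By rule, array values were given in full for a panel of factors that passed the filter without overlap, the 3 factors of smallest p in each direction of the BV fit were named, and others were given by range. LHX8, IRX5, ZIC2, DLX1, POU3F1, IRX2-DT and PBX2 were given more fully after their values were seen. Members, lists and piece sets were chosen with earlier results of these data known. Precision is limited by having 12 arrays from 3 animals.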

Additional observations from a re-analysis of the deposited data

Results flagged for a closer look

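Of 48 groups of 6 arrays examined for an outlying array (22 of the 46 factors and 2 array controls, in BV and in mock), 1 had an array far from the others: mock 6, with an actin 3' to 5' ratio of 2.40 against 1.10 to 1.40 in the other 5 mock arrays. Chance alone would set apart about 1 in 20 such groups. None of the 22 factors examined had such an array, and the other 24 were not examined.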

How the results depend on the processing

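The count of factor probe sets called between BV and mock was 0 in 26 of 27 alternatives, including the replicate block of 6 numbered pairs on single arrays (0 called) and the fit with no replicate block (0 called). Leaving out 1 animal or 1 array gave 0 to 5, the 5 being without animal 2. The 12 differences named kept their sign in every alternative run. The count of factors whose piece sets do not overlap, 7, was 3 without normalization and 4 with the filter at the 60th percentile. It was 7 to 11 when leaving out 1 array, which cannot undo a separation, so it could not fall below 7. The count was 18 of 29 within piece 1 arrays and 19 of 29 within piece 2 arrays, against 40.5% and 36.3% of all genes. Chosen after seeing the data, within-piece counts without normalization were 14 and 19. Shares of all genes were not taken without normalization, with the 60th percentile filter or with 1 array left out. The piece-set difference of PBX3 reversed without normalization (-0.025). The other piece-set differences put through these alternatives kept their sign. Not every factor named above was put through them. NKX3-2, at -0.41 over all arrays, had 0.27 within piece 1 and 0.40 within piece 2. SIX2, at -0.13, had 0.05 and 0.69. Each within-piece count sets 1 array against 5 others, so it cannot be read beside the count of 7 from all arrays. Why the within-piece counts are larger was not tested. Dim probe sets such as LHX8 and IRX5 are limited by the pseudocount.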
